A study of Mus musculus with 12 samples.

Results

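The tripartite motif (TRIM) family was followed here in dendritic cells from the spleens of wild-type (WT) mice and of mice lacking miR-142 (KO). Members were all genes of the deposited table with a single symbol of the form Trim plus a number, with or without a letter, other than Trim25 and Trim37. This gave 49 members among 17097 genes, each read from the probe set with its highest mean over the 12 arrays. Both genotypes were on the C57BL/6 background, and the mice were males of 10 weeks. The cells were taken by positive selection from single spleens, and each genotype was measured unstimulated and with lipopolysaccharide (LPS), a bacterial ligand of Toll-like receptor 4, with 3 arrays in each of the 4 groups. The sources used here give no dose or time of LPS, no design of the knockout allele, and no statement on whether the unstimulated and LPS arrays of 1 number came from 1 mouse. P-values come from 1 fit to all 12 arrays and rest on the spread between arrays within a group, pooled over the 4 groups. The design asks how loss of miR-142 and LPS each alter transcripts of these cells.

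The hairpin of Mir142 lies on mouse chromosome 11 and yields 2 mature strands, whose sequences are shown because their loss defines the KO groups. They were taken from RefSeq (GRCm38.p6), and the capitals mark the seed, bases 2 to 8, through which a microRNA pairs with its targets.
mmu-miR-142a-5p (chr11:87756867-87756887, + strand): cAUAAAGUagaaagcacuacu
mmu-miR-142a-3p (chr11:87756903-87756925, + strand): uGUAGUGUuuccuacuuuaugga
The level of Mir142 was not analysed here, so the genotype labels were not checked against the targeted gene.

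TRIM proteins carry, in their typical form, a RING finger, 1 or more B-boxes and a coiled coil, and many act as ubiquitin ligases. The C-terminal domain differs between members and sets the partner: a SPRY domain in many antiviral members, a PHD finger and bromodomain in the chromatin members, NHL repeats in others. In myeloid cells the family is known for virus restriction and for tuning the signals of nucleic acid sensors, NF-kB and interferon. Several antiviral members are interferon-induced genes.

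Signals are log2 values made with robust multi-array averaging (RMA), so a difference of 1 is a 2-fold change. The signal depends on the probes as well as on the transcript, and levels of different genes were therefore not ranked. Dendritic cell markers (9 of 9 measured) had mean log2 signals of 6.97 to 7.73 on the 12 arrays and T cell markers (6 of 8 measured) of 3.20 to 4.02. B cell markers had means of 4.80 to 6.36, and neutrophil markers of 3.31 to 4.66 on WT and 6.16 to 8.92 on KO arrays. The sample descriptions name T cells, while the source and cell type fields name dendritic cells. Array 2 of the KO group with LPS stood apart: its correlations with the other arrays were 0.935 to 0.958, against 0.966 to 0.991 among those, and its Gapdh control probes differed by 3.04 (log2, 3′ minus middle), against 1.53 to 1.86 elsewhere. It held the highest of the 12 values for 13 members and the lowest for 8, and for 18.8% and 23.2% of all genes. Values that changed by over 1.5 times without this array are mostly given both ways, since for many members that did not pass the size or the sign rested on it.

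On every array 25 members lay above the array median (2.65 to 2.72 over all probe sets), 14 lay below it on every array and 10 fell on both sides. Over all genes the shares were 51.8%, 32.3% and 15.9%, and over the members 51%, 28.6% and 20.4%, so the family was spread over the signal range much as other genes were. The members always below were Trim2, Trim6, Trim8, Trim9, Trim16, Trim23, Trim31, Trim40, Trim42, Trim43a, Trim63, Trim67, Trim68 and Trim71. Those on both sides were Trim10, Trim13, Trim14, Trim15, Trim21, Trim32, Trim34a, Trim45, Trim46 and Trim65. Nearest to the border among those always below was Trim23, at 2.60 on array 2 of the KO group with LPS (array median 2.65), then Trim67, at 2.57 on WT unstimulated array 3 (2.71). The lowest value of Trim80, which was never below, was 2.75. At such low signals a change of transcript may be missed.

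**Figure D1:**
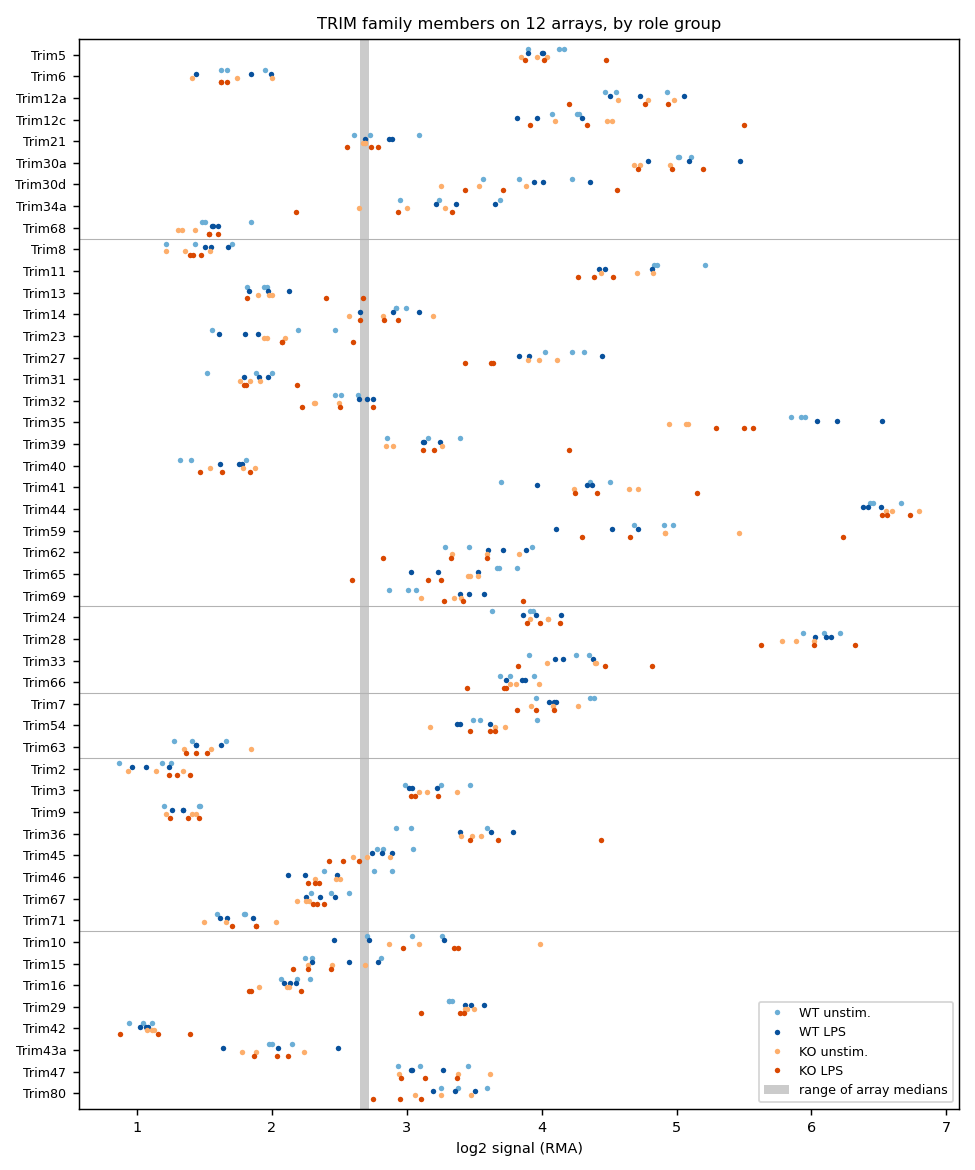
Log2 signal (x axis) of the 49 members (rows, grouped by role as in the text: interferon-inducible cluster and SPRY, sensing and NF-kB, chromatin, muscle, neuronal, other) on the 12 arrays. Each point is 1 array, coloured by group, and the grey band spans the array medians, 2.65 to 2.72. The KO arrays of Trim35 lie to the left of its WT arrays, and the points of most other members overlap between groups.

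Trim35 was the 1 member that passed the test between genotypes: its transcript was lower in KO dendritic cells with and without LPS. Trim35 encodes a RING-type ubiquitin ligase, known first from blood cell lineage switching and later for modifying proteins of antiviral signalling. Its unstimulated log2 signals were 5.85, 5.92 and 5.95 in WT and 4.94, 5.09 and 5.07 in KO. With LPS they were 6.04, 6.52 and 6.19 in WT and 5.29, 5.57 and 5.50 in KO. All 6 KO values lay below all 6 WT values.

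In unstimulated cells the KO minus WT difference of Trim35 was −0.88 ± 0.13 on the log2 scale (moderated standard error, 3 arrays a group), a signal lower by 1.83-fold (limma adjusted p = 0.0195). With LPS it was −0.80 ± 0.13 (limma adjusted p = 0.0217). Averaged over both stimulations it was −0.84 ± 0.09 (95% interval −1.03 to −0.64, limma adjusted p = 0.000779). Between the genotypes the LPS effect of Trim35 differed by 0.08 ± 0.18, KO less WT (limma adjusted p = 0.977, 95% interval −0.31 to 0.47), which did not pass.

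Without array 2 of the KO group with LPS the Trim35 values were −0.88, −0.86 and −0.87 (unstimulated, with LPS, averaged; limma adjusted p = 0.00533, 0.0210 and 0.000371). The averaged call held in all 12 fits that left out 1 array, with limma adjusted p from 0.000371 to 0.00374. The calls within 1 stimulation did not. In unstimulated cells the limma adjusted p was 0.0538, 0.0728 or 0.123 without WT array 1, 2 or 3, and 0.0929 or 0.0881 without KO array 1 or 2. With LPS it was 0.0569, 0.0705 or 0.110 without WT array 1, 2 or 3. The log2 difference stayed between −0.90 and −0.66 in these fits.

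**Figure D2:**
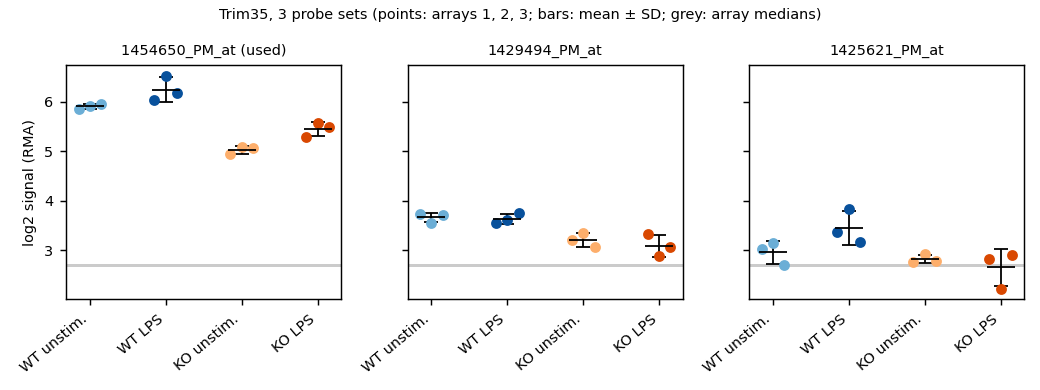
Log2 signal of the 3 Trim35 probe sets (panels) in the 4 groups (x axis). Points are arrays 1, 2 and 3 from left to right, black bars are the mean ± SD (n = 3) and the grey band spans the array medians. In the left and middle panels every KO array lies below every WT array, and in the right panel, near the array median, the groups overlap.

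Trim35 had 3 probe sets on the array, and all 3 had lower KO than WT means. The probe set used above had group means of 5.91, 6.25, 5.03 and 5.45 (WT unstimulated, WT with LPS, KO unstimulated, KO with LPS). In a fit over all probe sets with 1 symbol it gave −0.84 ± 0.09 for KO minus WT averaged over stimulation (limma adjusted p = 0.000942). The next gave −0.50 ± 0.09 (limma adjusted p = 0.0150), again with no overlap: its WT arrays ran from 3.55 to 3.75 and its KO arrays from 2.89 to 3.35. The dimmest, with a mean of 2.97 close to the array median, gave −0.47 ± 0.14 (limma adjusted p = 0.119). With the mean of the 3 probe sets in place of the highest, the Trim35 difference in unstimulated cells was −0.49 (limma adjusted p = 0.125) that with LPS −0.72 (limma adjusted p = 0.0225) and the averaged one −0.60 (limma adjusted p = 0.00238).

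Markers of other cell types moved with genotype in the same arrays. The summed linear signal of the natural killer cell list (8 of 8 measured) ran from 93 to 233 on WT and from 870 to 1045 on KO arrays. That of the neutrophil list (10 of 11 measured) ran from 193 to 973 on WT and from 2244 to 7829 on KO arrays. In the B cell list (5 of 6 measured) the sums were 404 to 592 and 193 to 424. Averaged over stimulation limma called 7 natural killer and 9 neutrophil genes higher in KO, with Ms4a1 higher and Jchain lower in the B cell list. Of the others, Ly6c1 (macrophage and monocyte, 8 of 9 measured) and Pf4 (platelet, 5 of 5) were higher and no dendritic, T cell or erythroid gene was called. The dendritic sums were 2939 to 3442 on WT and 2079 to 3161 on KO arrays, the T cell sums 73 to 115 and 60 to 100, the macrophage and monocyte sums 350 to 618 and 397 to 576, and the platelet sums 53 to 112 and 118 to 614. No gene of these lists lay below the array median on all 12 arrays, and their part in the Trim35 difference was not tested. In RNA from selected cells of a whole spleen, fewer cells with a transcript and less transcript per cell cannot be told apart.

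Apart from Trim35 no member was called between genotypes. In unstimulated cells limma called 1 of 49 members, Trim35, against 0.252% of all genes (0.205% higher and 0.0468% lower in KO). With LPS it was again Trim35, against 0.445% (0.275% higher and 0.17% lower). Averaged over stimulation it was Trim35, against 2.62% of all genes (1.74% higher and 0.877% lower). At an unadjusted p under 0.05 the counts were 2, 7 and 6 members, where all genes gave 8.73%, 13.8% and 16.3%.

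Groups that did not overlap are the other way to read the same arrays. Unstimulated KO and WT arrays did not overlap for 8 members, 2 higher and 6 lower in KO, against 16.9% of all genes (8.99% higher and 7.87% lower). With LPS they did not for 11, 3 higher and 8 lower, against 17.1% (6.92% and 10.2%). Trim35 was the 1 member without overlap in the same direction in both stimulations, against 4.8% of all genes (2.66% and 2.14%). Trim29 was without overlap in both but higher in unstimulated and lower in LPS-treated KO cells. With LPS the margin was thin (lowest WT value 3.4315, highest KO value 3.4266). Averaged over stimulation the members had a median difference of −0.02 and all genes one of −0.02, and the medians of the absolute differences were 0.13 and 0.10. Without array 2 of the KO group with LPS the median differences were −0.07 and −0.01.

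**Figure D3:**
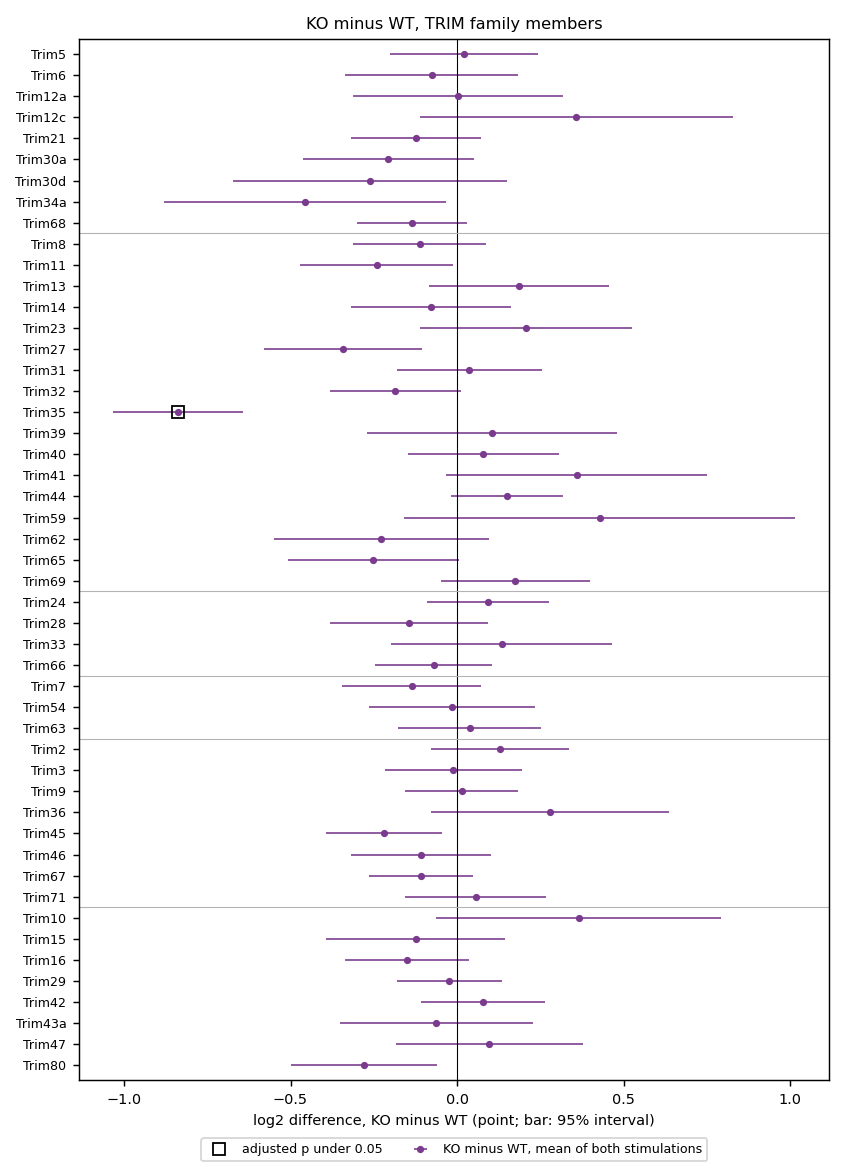
KO minus WT, averaged over both stimulations, for the 49 members (rows, grouped by role). Points are log2 differences, bars their 95% intervals from the limma fit on 12 arrays, and the open square marks an adjusted p under 0.05. Trim35, at −0.84, is the member whose interval lies farthest from 0.

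The 9 members of the interferon-inducible cluster and SPRY group were taken as 1 list, and induction by interferon was not tested. Of this group Trim6 and Trim68 lay below the array median on all 12 arrays. Trim6, Trim34a, Trim5, Trim12a, Trim12c, Trim30a and Trim30d lie in 1 run on chromosome 7 that holds 11 protein-coding genes in the RefSeq annotation (GRCm38.p6), 10 of them Trim genes, with Trim21 and Trim68 elsewhere on that chromosome. Trim5, Trim12a and Trim12c are the mouse relatives of primate TRIM5, which binds retroviral capsids. Trim30a is known to damp NF-kB signalling through loss of the adaptors Tab2 and Tab3, and Trim21 is a cytosolic receptor for antibody-coated particles.

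Of these 9 members, 7 held the core of the interferon-stimulated response element, GAAANNGAA on either strand, in a RefSeq promoter window (250 bases before to 50 after the start site). Among the other 30 members with a promoter in the table it was 2 (Trim2 and Trim7), and 9.76% of all 27025 genes in the table held it in at least 1 promoter (8.56% of all 32851 promoters). The match is a description of letters, not evidence of a bound factor. The windows of 30 bases around the first match are shown because their members share it, with the motif in capitals (in Trim21 2 overlapping copies) and the strand of the gene:
Trim21 (chr7:102565450-102565479, − strand): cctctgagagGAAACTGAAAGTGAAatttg
Trim34a (chr7:104244458-104244487, + strand): ggtttggagtTTCAGTTTCttttctctgca
Trim5 (chr7:104288135-104288164, − strand): gagttgtggtTTCTGTTTCatttccagagc
Trim12a (chr7:104315465-104315494, − strand): gagttgtggtTTCTGTTTCatttccagagc
Trim12c (chr7:104353358-104353387, − strand): gagttgtggtTTCTGTTTCatttccagctc
Trim30a (chr7:104465209-104465238, − strand): gttctttagtTTCTTTTTCtcagttcctgc
Trim30d (chr7:104507870-104507899, − strand): gttctttagtTTCTTTTTCtcagttcctgc
The windows of Trim5 and Trim12a are identical, as are those of Trim30a and Trim30d. A second Trim30a promoter in the table held the motif too. The gamma-activated site, TTCNNNGAA, was in promoters of 4 of 39 members (Trim15, Trim31, Trim45 and Trim46), against 9.55% of all genes (8.3% of promoters). The NF-kB consensus was in those of 5 (Trim13, Trim28, Trim43a, Trim46 and Trim7), against 9.55% of all genes (8.46% of promoters). None of the 9 members of the interferon-inducible cluster and SPRY group held either motif in its window. The table gave no promoter for Trim3, Trim8, Trim11, Trim14, Trim16, Trim29, Trim33, Trim35, Trim36 and Trim65.

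None of the 7 members with this motif passed the test for LPS in either genotype. Trim30a had log2 signals of 5.02, 5.10 and 5.01 unstimulated and 5.09, 5.47 and 4.79 with LPS in WT, and 4.95, 4.73 and 4.68 against 4.97, 5.20 and 4.72 in KO. The groups overlapped in both genotypes. The LPS difference of Trim30a was 0.07 ± 0.17 in WT and 0.17 ± 0.17 in KO (limma adjusted p = 1.00 and 0.803, n = 3 arrays per group). The 95% intervals, −0.29 to 0.43 and −0.19 to 0.53, exclude a 2-fold rise but not a small one.

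Trim12a likewise overlapped between groups. Its signals were 4.55, 4.93 and 4.47 unstimulated and 4.73, 5.05 and 4.50 with LPS in WT, and 4.79, 4.98 and 4.56 against 4.77, 4.94 and 4.20 in KO. Trim12a differed with LPS by 0.11 ± 0.20 in WT and −0.14 ± 0.20 in KO, the latter −0.29 without array 2 of that group. The interferon-inducible cluster and SPRY group (9 members) had LPS differences from −0.18 to 0.23 in WT and from −0.17 to 0.35 in KO. Its medians were 0.01 and 0.17, against medians over all genes of 0.00 and −0.02. Without array 2 of the KO group with LPS the KO median was −0.01 and the range −0.29 to 0.18. Trim5, Trim12c, Trim30a and Trim30d differed with LPS in KO by 0.17, 0.21, 0.17 and 0.35 with all arrays and by −0.01, −0.25, 0.05 and 0.02 without that array. Trim34a went from −0.17 to 0.15, and Trim68 stayed close to its value (0.20 and 0.18).

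Between genotypes none of the 9 passed either. Trim30a and Trim30d differed by −0.21 ± 0.12 and −0.26 ± 0.19 averaged over stimulation (limma adjusted p = 0.417 and 0.536), and by −0.27 and −0.43 without array 2 of the KO group with LPS (limma adjusted p = 0.268 and 0.139). In the fit over all probe sets, the other Trim30d probe sets gave −0.60 ± 0.16 (limma adjusted p = 0.0752) and −0.09 ± 0.14. The former had its lowest signal, 2.18, on that array. The other Trim30a probe set gave −0.11 ± 0.15. Trim34a differed by −0.46 ± 0.19 (limma adjusted p = 0.269) and by −0.30 without that array, where its signal of 2.17 was the lowest of the 12. Trim12c had a signal of 5.50 on that array against 3.81 to 4.52 on the others. Its averaged genotype difference was 0.36 ± 0.22 with that array and 0.13 without it. The other Trim12c probe set gave −0.30 ± 0.11 in the fit over all probe sets (limma adjusted p = 0.214), with its lowest signal, 2.87, on that array. The sign for Trim12c therefore depended on the probe set. Neighbouring members are close in sequence, so probe sets of Trim5, Trim12a, Trim12c, Trim30a and Trim30d may pick up each other's transcripts and are uncertain as measures of 1 gene.

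**Figure D4:**
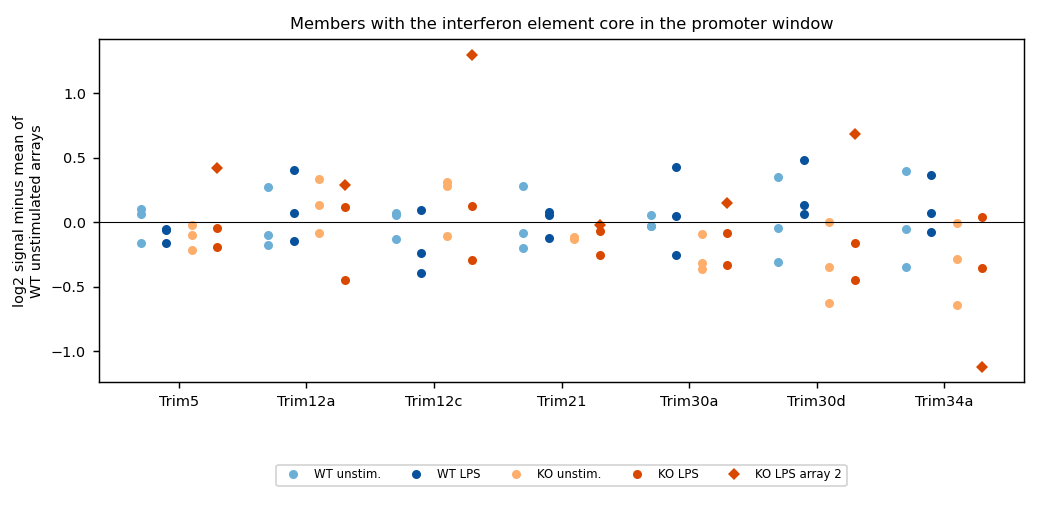
Log2 signal minus the mean of the 3 unstimulated WT arrays (y axis) for the 7 members with the response element core in the promoter window (x axis). Each point is 1 array, coloured by group, and diamonds mark array 2 of the KO group with LPS. For all 7 the LPS and unstimulated points overlap within each genotype, and array 2 is the highest KO point for Trim12c (5.50 before centring) and the lowest for Trim34a (2.17).

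The 17 members that act on sensing and NF-kB signalling held Trim35 and 2 of the 5 other members with an unadjusted p under 0.05 in the averaged genotype comparison, Trim27 and Trim11. Trim27, named after its values were seen, a ligase that interferes with NF-kB activation, differed between genotypes by −0.34 ± 0.11 averaged over stimulation (limma adjusted p = 0.135). Its LPS-treated arrays read 3.91, 4.45 and 3.83 in WT and 3.64, 3.43 and 3.63 in KO, without overlap, and its unstimulated arrays overlapped (3.98, 3.90 and 4.11 in KO, 4.02, 4.22 and 4.32 in WT). Trim27 had 2 further probe sets, both below the array median on all arrays, which gave −0.10 and 0.06. By the test on the probe set used, Trim27 did not pass in the genotype comparison.

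Trim44, which lacks a RING finger and is known as a stabiliser of other proteins, read 6.46, 6.66 and 6.43 in unstimulated WT and 6.38, 6.52 and 6.42 in WT with LPS. In KO it read 6.59, 6.55 and 6.80, and 6.53, 6.56 and 6.73 with LPS. These ranges overlapped unstimulated and did not with LPS, by a narrow margin (highest WT 6.517, lowest KO 6.525). The averaged KO minus WT difference of Trim44 was 0.15 ± 0.08 (limma adjusted p = 0.369, 95% interval −0.02 to 0.32). The other Trim44 probe set had the opposite sign, −0.25 ± 0.22, in the fit over all probe sets (limma adjusted p = 0.628). Its lowest signal, 1.74, was on array 2 of the KO group with LPS.

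Trim11, a ligase of the SPRY class, read 4.83, 5.21 and 4.86 in unstimulated WT and 4.43, 4.82 and 4.47 in WT with LPS, a difference of −0.40 ± 0.15 (limma adjusted p = 0.835). In KO, Trim11 read 4.44, 4.71 and 4.82 unstimulated and 4.53, 4.27 and 4.39 with LPS (−0.26 ± 0.15, limma adjusted p = 0.633). WT arrays with LPS lay below those without, by a narrow margin, and KO arrays overlapped. Between genotypes Trim11 differed by −0.24 ± 0.11 averaged over stimulation (limma adjusted p = 0.281).

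Trim59, a membrane-anchored member, and Trim41, another ligase, show how array 2 of the KO group with LPS weighs on single probe sets. Trim59 read 4.97, 4.69 and 4.91 in unstimulated WT, 4.71, 4.53 and 4.11 in WT with LPS, 4.91, 5.47 and 4.91 in unstimulated KO and 4.66, 6.24 and 4.30 in KO with LPS. Its KO minus WT difference with LPS was 0.62 ± 0.38 and 0.03 without that array. Trim41 read 4.36, 4.51 and 3.70, then 4.34, 4.38 and 3.96, then 4.24, 4.71 and 4.64, then 4.24, 5.15 and 4.41 in the same order of groups. Its difference with LPS was 0.38 ± 0.25, and 0.10 without it. Averaged over stimulation Trim59 differed by 0.43 and Trim41 by 0.36 between genotypes, and by 0.13 and 0.22 without that array. Neither gene passed the test with or without that array. The other probe set of each gene was not raised on that array. That of Trim59 read 4.08 there, within its other values, and that of Trim41 read 2.13, its lowest. They gave KO minus WT differences with LPS of 0.04 and −0.14 in the fit over all probe sets.

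Few genes passed the test for LPS on these arrays, and no member did. In WT limma called 0 of 49 members against 0.117% of all genes, all of them higher, and in KO 0 of 49 against 0.392% (0.357% higher and 0.0351% lower). At an unadjusted p under 0.05 the counts were 5 members in WT (5.12% of all genes) and 4 in KO (9.47%). LPS and unstimulated arrays did not overlap for 6 members in WT (4 higher and 2 lower, against 11.9% of all genes, 6.81% and 5.09%) and for 7 in KO (3 higher and 4 lower, against 13.5%, 5.75% and 7.71%). The 95% interval of the LPS difference lay within 1 log2 unit of 0 for 48 of 49 members in each genotype.

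**Figure D5:**
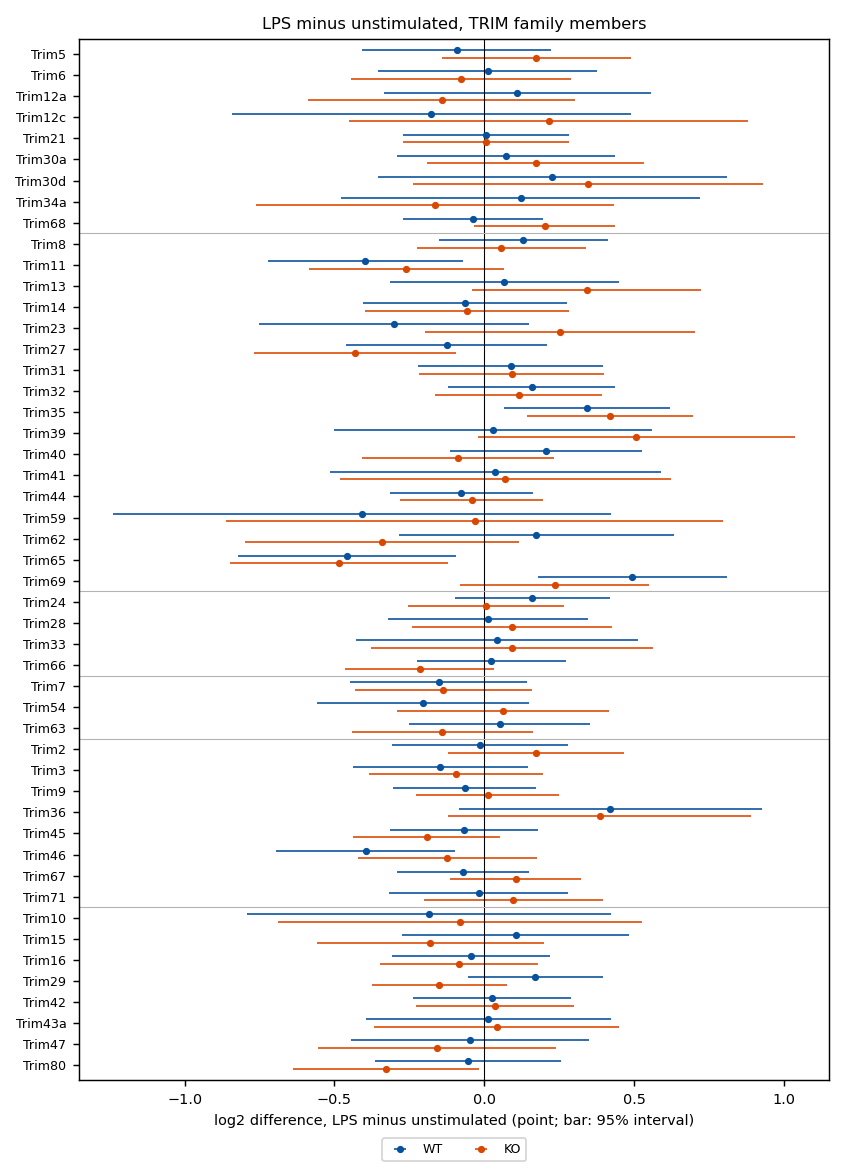
LPS minus unstimulated for the 49 members (rows, grouped by role) in WT (blue) and KO (orange). Points are log2 differences and bars their 95% intervals from the limma fit on 12 arrays. No member passed the adjusted test, and for Trim35 and Trim65 the intervals of both genotypes lie on the same side of 0.

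Trim35 and Trim65 kept the same direction with LPS in both genotypes, without overlap in either. Averaged over genotype, a comparison added after the data were seen, Trim35 had an LPS difference of 0.38 ± 0.09 (limma adjusted p = 0.0964). With the array number as a block the same difference had a limma adjusted p = 0.0395, and with the number within genotype as a random block 0.0420, so the call depends on that choice. Trim65, a ligase known to modify the RNA sensor Ifih1, had unstimulated signals of 3.68, 3.82 and 3.67 in WT and 3.47, 3.46 and 3.53 in KO. With LPS it read 3.03, 3.53 and 3.23 in WT and 2.59, 3.16 and 3.25 in KO. The averaged LPS difference of Trim65 was −0.47 ± 0.12 (limma adjusted p = 0.131), and −0.51 without array 2 of the KO group (limma adjusted p = 0.0687). In that averaged comparison 0 of 49 members were called, against 0.801% of all genes (0.702% higher and 0.0994% lower), and 7 had an unadjusted p under 0.05, against 9.04%. Groups that did not overlap in the same direction in both genotypes were found for 2 members, Trim35 (higher) and Trim65 (lower), against 2.15% of all genes (1.43% and 0.719%). Trim69, a RING-type ligase, read 2.87, 3.07 and 3.01 unstimulated and 3.39, 3.46 and 3.57 with LPS in WT, a difference of 0.49 ± 0.15 (limma adjusted p = 0.603), and its KO arrays overlapped (3.35, 3.40 and 3.11 against 3.28, 3.42 and 3.86). Trim65 and Trim69 were named after their values were seen.

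The other Trim35 probe sets differed from the one used in their LPS values, and from each other. The brighter of them gave −0.03 ± 0.13 in WT and −0.12 ± 0.13 in KO (−0.02 without array 2 of the KO group). The dimmer gave 0.50 ± 0.20 in WT, without overlap (limma adjusted p = 0.926), and −0.17 ± 0.20 in KO, or 0.04 ± 0.18 without that array. Across the 19 members with more than 1 probe set, all probe sets had the same sign in 10 members for KO minus WT averaged over stimulation, in 11 for LPS in WT and in 8 for LPS in KO. The same count was not made over all genes, so whether the members differ from other genes in this is not known.

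Whether LPS acted differently in the genotypes was tested directly. No member was called, as for all genes (0%), and 1 member, Trim29, had an unadjusted p under 0.05 against 3.74% of all genes. The widest 95% interval of a member, that of Trim59, reached 1.17 log2 units to either side. Without array 2 of the KO group with LPS the widest was 0.89, for Trim10, so the larger width rested on that array.

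The chromatin members Trim24, Trim28, Trim33 and Trim66 lay above the array median on all arrays by the probe sets used, and none passed in any comparison. Another probe set of Trim24 and the other of Trim33 lay below it on all 12 arrays. Trim28, the corepressor recruited by KRAB zinc finger proteins, read 5.94, 6.10 and 6.21 in unstimulated WT and 6.03, 6.11 and 6.15 in WT with LPS. In KO it read 5.89, 5.78 and 6.02 unstimulated and 5.63, 6.32 and 6.02 with LPS, overlapping WT in both states. Its averaged KO minus WT difference was −0.14 ± 0.11 (limma adjusted p = 0.552), and −0.23 without array 2 of the KO group with LPS (limma adjusted p = 0.227). Trim24, Trim33 and Trim66 differed by 0.09, 0.13 and −0.07, and by 0.12, 0.02 and −0.02 without that array.

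None of the muscle, neuronal and remaining members passed, and many of them were dim. Trim63 (MuRF1, a muscle ligase) was below the array median on all arrays, and Trim54 and Trim7 never were, with averaged KO minus WT differences of −0.02 and −0.14. In the neuronal and NHL group of 8, differences between genotypes ran from −0.22 to 0.28 (−0.25 to 0.13 without array 2 of the KO group with LPS), and Trim2, Trim9, Trim67 and Trim71 were below the median throughout. In the last group of 8, Trim10, first described in red cell development, differed by 0.36 ± 0.20 (limma adjusted p = 0.391), with 3.99 on KO unstimulated array 2 against 2.46 to 3.38 on the others. Trim80 read 3.20, 3.36 and 3.51 in WT with LPS and 2.95, 2.75 and 3.11 in KO with LPS, without overlap, and differed by −0.28 ± 0.10 averaged over stimulation (limma adjusted p = 0.188). Trim45, of the neuronal and NHL group by its place in the list, differed by −0.22 ± 0.08 (limma adjusted p = 0.191). These were named after their values were seen. The erythroid markers (4 of 6 measured) had summed linear signals of 397 to 1415 on WT and 1072 to 1927 on KO arrays, and their part in the Trim10 values was not tested.

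Genes of the pathways in which TRIM proteins work were counted beside the family, and shares of all genes called are those given above (2.62% for the averaged genotype comparison, 0.392% for LPS in KO). Of the 14 listed E2 enzymes, which hand ubiquitin to such ligases, 13 were measured, and Ube2e2 was lower in KO averaged over stimulation (−0.64 ± 0.12, limma adjusted p = 0.0178), with no other call in any comparison. Of 11 corepressor partners of Trim28, 10 were measured and none was called. Of 27 genes of nucleic acid sensing and interferon signalling 22 were measured. Among these Ifih1, the sensor of long double-stranded RNA, was lower in KO averaged over stimulation (−1.13 ± 0.20, limma adjusted p = 0.0138), and the interferon receptor chain Ifnar2 higher (0.43 ± 0.08, limma adjusted p = 0.0174). Without array 2 of the KO group with LPS, Ube2e2 (−0.80), Ifih1 (−1.56) and Ifnar2 (0.54) were also called between genotypes in unstimulated cells. Their limma adjusted p was 0.0461, 0.0146 and 0.0188, and 166 of all 17097 genes were called there. With LPS in KO, Ifih1 was higher by 2.44 ± 0.29 (limma adjusted p = 0.00225), and in WT by 1.58 ± 0.29 without passing (limma adjusted p = 0.0630), though it passed without array 2 of the KO group (limma adjusted p = 0.0222). Averaged over genotype the LPS difference of Ifih1 was 2.01 ± 0.20 (limma adjusted p = 0.000349). The other 21 measured genes of that list, Irf7, Irf9 and Stat2 among them, were not called for LPS in either genotype or averaged, with medians of 0.09 in WT and −0.02 in KO.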

How the data were processed

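The deposited table holds log2 signals of 45141 probe sets, which the authors made with RMA per the submitters' processing notes (its version is not given there). RNA was amplified from the 3′ end and with random primers, per the labels' protocols. Probe sets that were controls (104), carried several symbols (551) or no symbol (15588) were excluded, and the highest-mean probe set of each gene was kept. One linear model with 4 group means was fitted to 17097 genes with limma 3.58.1 in R 4.3.3 (8 residual degrees of freedom, total 12.3), without a filter on dim genes. Adjusted p-values are Benjamini-Hochberg values over all genes, called under 0.05. The fit was tested on simulated data. All 49 members matched a RefSeq gene by number.

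Members and lists were chosen with earlier results of these data known. Values per array are given for called members and, as a rule for what to print and not a ranking of transcripts, the 8 members with the highest mean signal; other members were named after their values were seen. The labels state no pairing. Deviations from the group means were compared between arrays of 1 number and genotype: WT arrays 1, 2 and 3 gave correlations of 0.334, 0.206 and 0.357, and KO arrays 0.244, 0.247 and 0.364. All are over 0.1, so the number within genotype was used as a block in an alternative fit. The main fit took all arrays as independent. If the numbers are pairs, its averaged genotype comparison counts arrays of 1 mouse as independent. Between genotypes, arrays of number 3 gave 0.178 unstimulated and 0.158 with LPS, and those of numbers 1 and 2 at most 0.07. Alternatives were leaving out each array, blocks by array number, only the groups compared, another variance prior, a dim-gene filter, the mean of all probe sets, quantile normalization and array weights.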

Additional observations from a re-analysis of the deposited data

Results flagged for a closer look

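Trim29 had its LPS arrays above its unstimulated arrays in WT (3.43, 3.47 and 3.57 against 3.31, 3.31 and 3.34) and below them in KO (3.43, 3.10 and 3.40 against 3.50, 3.45 and 3.43), which drew attention to it. In KO the margin was thin, with a highest LPS value of 3.4266 and a lowest unstimulated value of 3.4286. The difference between the LPS effects was −0.32 ± 0.15 and did not pass (limma adjusted p = 0.970). Without array 2 of the KO group with LPS it was −0.22.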

How the results depend on the processing

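Leaving out 1 array in turn gave 0 to 1 called members for KO versus WT unstimulated, 0 to 2 with LPS and 1 throughout for the average; LPS in WT, LPS in KO, LPS averaged over genotype and the difference of LPS effects gave 0 throughout. Over all genes the calls in the same fits ran from 5 to 166, from 2 to 358 and from 186 to 826 for these 3 genotype comparisons, so the number of calls moved widely with the array left out. The second member was Trim13, called with LPS without KO array 3 (0.57, limma adjusted p = 0.0464, against 0.32 and 0.438 with all arrays), a gene below the array median on 11 of 12 arrays. Its highest signal, 2.68, was on array 2 of the KO group with LPS. Without that array its difference with LPS was 0.13 (limma adjusted p = 0.865). With only the groups compared, 0 members were called for KO versus WT with LPS (Trim35 −0.80, limma adjusted p = 0.271), and with the mean of all probe sets 0 for KO versus WT unstimulated. With the replicate block by number, and with the random block by pair, 1 member, Trim35, was called for LPS averaged over genotype (0.38, limma adjusted p = 0.0395 and 0.0420); the blocks changed no other call, and Trim35 then had limma adjusted p = 0.00373 and 0.0142 for KO versus WT unstimulated and 0.000219 and 0.00142 for the average. No called value of a followed member changed sign. Against the median of the kept genes in place of all probe sets, 20 rather than 14 members lay below it on all arrays. The filter on dim genes kept 28 of 49 members. Members near or below the array median could have narrow intervals, such as −0.27 to 0.20 for Trim68 with LPS in WT. At such low signals a change of transcript may still be missed.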

Other observations

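5 further probe sets carried 2 symbols and were no members. The 4 for Trim61 and Trim60 together had log2 signals of 0.93 to 1.14, 2.25 to 2.89, 1.71 to 2.18 and 2.82 to 3.40 over the 12 arrays, the last above the array median throughout. The 1 for Trim3 and Eef2 ran from 1.16 to 1.80. None passed in any comparison, with KO minus WT averaged over stimulation between −0.15 and 0.03 (limma adjusted p from 0.575 to 0.988).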
